A study of Homo sapiens with 18 samples.

Results

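The mitochondrial genome (mtDNA) of human cells encodes 13 mRNAs, 2 rRNAs and 22 tRNAs, and these 37 genes are described here in MDA-MB-231, a long-established cell line of human triple-negative breast cancer. They were chosen as the rows of the gene table whose Ensembl identifier belongs to a symbol starting with MT- on the mitochondrial chromosome. All 37 were present among the 62830 rows of the table, of which 61860 have an Ensembl identifier and 970 are unnamed loci. The rule used position and name and no measured value, but it was chosen with earlier results of these data known. All 37 also passed the filter on low values, which kept 15764 genes.

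RNA sequencing covered 18 libraries in 6 groups of 3: TRIM27 knockout (KO) and wild-type (WT) cells after siRNA against PARP1 (siPARP1, labelled 100 pM, 48 h), KO and WT cells after olaparib (2 µM, 24 h), and KO and WT cells without treatment. TRIM27 is a ubiquitin ligase, PARP1 is a nuclear enzyme that attaches ADP-ribose chains at DNA breaks, and olaparib inhibits PARP1 and PARP2. Whether the KO cells are 1 clone is not stated in the labels. The protocol text mentions DMSO and a non-targeting siRNA as controls, but no library is labelled as such. Untreated cells had to serve as controls, and both treatments were compared with the same untreated libraries. The labels put all libraries in the same batch and do not state whether libraries of the same group are separate cultures. The p-values therefore reflect library-to-library spread alone, which may be technical.

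Human mtDNA is a small circle with hardly any space between its genes. Both strands are transcribed into long RNAs by the polymerase POLRMT with TFAM and TFB2M. Most genes are read from the heavy strand, while the complex I mRNA MT-ND6 and 8 of the tRNAs are read from the light strand. The tRNAs lie between the longer genes, and cutting at their ends frees the mRNAs and rRNAs. Most of the mRNAs then receive poly(A) tails, while MT-ND6 carries at most a short one. All are translated by mitochondrial ribosomes, which contain both rRNAs, into subunits of respiratory complexes I, III and IV and of the ATP synthase.

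The tRNAs on which the results below turn are shown with the anticodon in capitals and 5′ to 3′ as the tRNA reads, from the GENCODE 29 transcript sequences on GRCh38. MT-TF, MT-TV and MT-TT, the heavy-strand tRNAs for phenylalanine, valine and threonine, include the largest change of each treatment comparison. MT-TF lies at chrM:577-647, MT-TV at chrM:1602-1670 and MT-TT at chrM:15888-15953, all on the plus strand.
MT-TF: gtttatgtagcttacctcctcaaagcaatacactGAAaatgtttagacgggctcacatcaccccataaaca
MT-TV: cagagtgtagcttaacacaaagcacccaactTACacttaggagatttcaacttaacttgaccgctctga
MT-TT: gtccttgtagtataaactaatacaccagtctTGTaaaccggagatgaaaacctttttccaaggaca
MT-TA, MT-TN, MT-TC and MT-TY, the light-strand tRNAs for alanine, asparagine, cysteine and tyrosine, form a cluster at chrM:5587-5891 on the minus strand, between the tryptophan tRNA MT-TW at chrM:5512-5579 and MT-CO1. They are shown because their rows had far higher FPKM than those of the other tRNAs and moved together.
MT-TA: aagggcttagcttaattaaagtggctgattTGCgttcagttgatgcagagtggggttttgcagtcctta
MT-TN: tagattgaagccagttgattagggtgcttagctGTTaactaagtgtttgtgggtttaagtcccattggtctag
MT-TC: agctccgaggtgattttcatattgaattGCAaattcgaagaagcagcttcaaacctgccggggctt
MT-TY: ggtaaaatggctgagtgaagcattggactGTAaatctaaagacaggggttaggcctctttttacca
MT-TW and the light-strand proline tRNA MT-TP, at chrM:15956-16023, separated the treatments in opposite directions.
MT-TW: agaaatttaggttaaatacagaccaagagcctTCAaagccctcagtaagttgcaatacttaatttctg
MT-TP: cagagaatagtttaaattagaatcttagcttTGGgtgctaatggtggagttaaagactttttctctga

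Values are FPKM, fragments per transcript length and sequencing depth, as deposited. They are shares of a library: fewer mitochondria, less mitochondrial RNA per cell and more of the other RNA cannot be told apart. Depth is unknown in absolute terms, and the steps between low values put the libraries at 0.748 to 1.24 times the depth of untreated WT library 1. The unnamed loci held 43.4 to 49.8% of all FPKM, with group means of 43.9% in KO and 45.4% in WT cells under siPARP1, 45.1% in KO and 46.8% in WT cells under olaparib and 48.8% in KO and 49.3% in WT cells without treatment, so annotated genes held a larger share in treated cells. TRIM27 RNA was 0.547 to 1.04 FPKM in KO libraries and 1.18 to 2.44 FPKM in WT libraries. PARP1 was 8.71 to 11.7 FPKM under siPARP1, 36.7 to 41.9 FPKM under olaparib and 51.5 to 59.1 FPKM without treatment. Among marker genes, VIM was present at 1564 to 2710 FPKM and EGFR at 11.4 to 28.8 FPKM. The leukocyte gene PTPRC was at most 0.0476 FPKM, and the receptor genes ESR1 and PGR were at most 0.266 and 0.00458 FPKM. Not all other markers were near the floor. ERBB2 was 14.4 to 32.4 FPKM, a range like that of EGFR. PDGFRB averaged 1.26 FPKM in untreated KO and in untreated WT cells and was at most 0.534 FPKM under treatment. How these levels bear on the triple-negative label was not tested. How strand was handled is not stated, so reads from opposite strands of the same stretch of mtDNA cannot be told apart. The tRNA rows are 59 to 75 bases long, and a read counted there can come from a mature tRNA or from a longer RNA that includes it. Because the libraries were selected with oligo(dT), these rows are not a measure of mature or total tRNA. Statements on tRNAs below are about the values of these rows.

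Averaged over the 18 libraries, the 10 highest annotated genes of the whole table were all encoded in mtDNA, and 15 of the highest 20 were. The 3 mRNAs of cytochrome c oxidase (complex IV) led, with 18-library means of 14426 FPKM for MT-CO1, 12681 FPKM for MT-CO3 and 12336 FPKM for MT-CO2. MT-ND4L and MT-ATP8 followed at 8955 and 8169 FPKM. These share bases with MT-ND4 and MT-ATP6 on bicistronic mRNAs, so their rows and those of their partners are not independent. The tRNAs ranged from 11.3 FPKM for MT-TS1 (serine) and 17.6 FPKM for MT-TQ (glutamine) to 3308 FPKM for MT-TN, and MT-TN, MT-TC, MT-TY and MT-TA were the 4 highest at 1799 FPKM or more. The next tRNA, MT-TS2 (serine), averaged 894 FPKM.

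The 13 mRNAs held 22.2 ± 0.652% of the FPKM of annotated genes in siPARP1-treated KO cells and 20.9 ± 0.370% in siPARP1-treated WT cells, 18.9 ± 0.792% and 19.8 ± 0.755% in KO and WT cells under olaparib, and 15.0 ± 0.600% and 17.6 ± 1.27% in untreated KO and WT cells (SD, n = 3 each). The 22 tRNAs held 3.71 ± 0.0284% and 3.20 ± 0.00752% in KO and WT cells under siPARP1, 4.43 ± 0.0669% and 3.71 ± 0.0535% under olaparib, and 2.69 ± 0.0404% and 2.22 ± 0.00781% without treatment. The tRNA share therefore peaked under olaparib and the mRNA share under siPARP1, and in each condition the 3 KO libraries lay above the 3 WT libraries for the tRNA share. The tRNA share is mostly that of the clustered MT-TA, MT-TN, MT-TC and MT-TY, while the FPKM of the 18 other tRNAs peaked under siPARP1. These 18 summed to 6966.5 in KO and 6512 in WT cells there, 5809 and 5397 under olaparib, and 2411 and 2499 without treatment. All 37 genes together were 4.18 percentage points higher under olaparib than without treatment over both genotypes, and 6.23 points higher under siPARP1 (exact permutation test stratified by genotype, two-sided p = 0.005 for each, the smallest that it can give). KO minus WT differed in sign between conditions. It was 1.80 points under siPARP1, where all KO libraries (27.3 to 28.2%) lay above all WT libraries (25.5 to 26.2%; exact permutation test, p = 0.1, the smallest that 3 against 3 can give). It was -0.23 points under olaparib (exact p = 0.6) and -1.49 points without treatment (exact p = 0.3). These cancel in the value over all 3 conditions, 0.0257 points (stratified exact permutation test, p = 0.963). In FPKM, short rows weigh as much as long ones: weighted by length, the tRNAs were 0.845 to 1.66% of mtDNA-encoded signal per library.

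**Figure D1:**
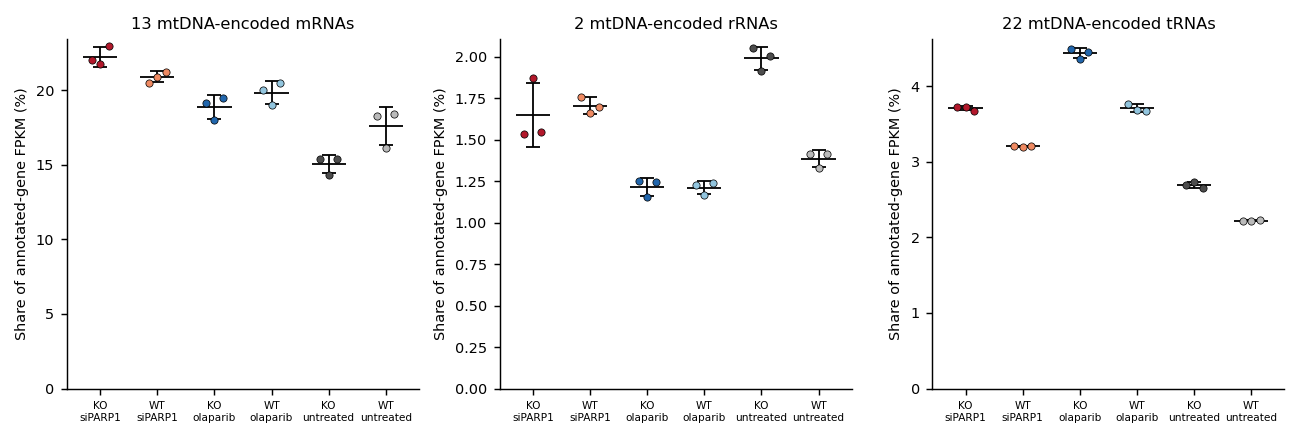
Share of the FPKM of annotated genes held by the 13 mRNAs, 2 rRNAs and 22 tRNAs (y axes, percent, from 0) in each of the 6 groups; points are libraries, long lines the mean and error bars the SD (n = 3). The tRNA share was highest in olaparib-treated KO cells (4.43%) and the mRNA share in siPARP1-treated KO cells (22.2%), while the rRNA share was lowest under olaparib (1.22% in KO and 1.21% in WT cells). The tRNA share is mostly that of MT-TA, MT-TN, MT-TC and MT-TY.

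All 22 tRNA rows rose under both treatments in both genotypes. A gene was called at an adjusted p under 0.05 (limma, Benjamini-Hochberg over all 15764 genes), and changes are given on the log2(FPKM + 1) scale with their SE, which understates the change of low genes. Of the 37 genes, 35 were higher and 1 lower under siPARP1 in KO cells, against 31.9% of all tested genes called higher and 22.8% lower. In WT cells siPARP1 gave 35 higher and 0 lower, against 29.5% and 22.3%. Olaparib gave 35 higher and 1 lower in KO cells, against 25.2% and 22%, and 31 higher and 1 lower in WT cells, against 24.9% and 20.4%. The median change of the 37 genes was 1.00 and 0.88 under siPARP1 in KO and WT cells and 0.73 and 0.67 under olaparib, while that of all tested genes was 0.07, 0.07, 0.03 and 0.03. When FPKM were rescaled to the sum of annotated genes, the median of all genes under siPARP1 moved to -0.05 in KO and -0.03 in WT cells. The mtDNA-encoded genes moved down too: MT-TA under siPARP1 in KO cells was at 0.04 after rescaling and 0.20 before it, and MT-CO2 under siPARP1 in WT cells at 0.15 after and 0.28 before. Neither passed after rescaling (limma, adjusted p = 0.494 and 0.0621).

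**Figure D2:**
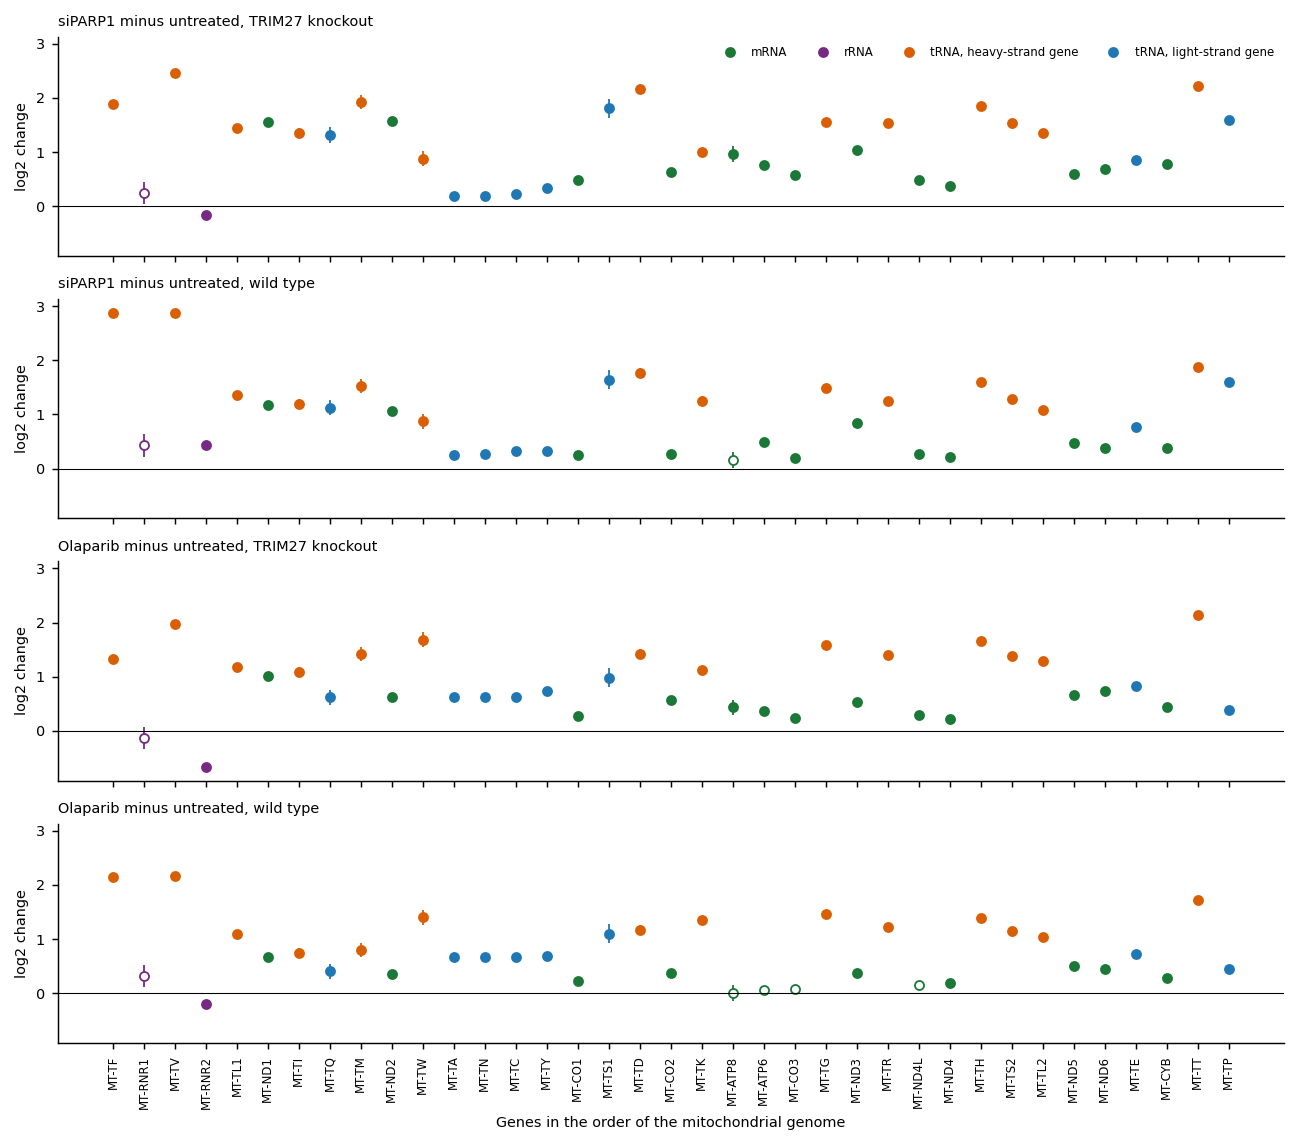
Change of each of the 37 genes (y axis, difference in log2(FPKM + 1), treated minus untreated, with SE) in the order of the mitochondrial genome, for siPARP1 and olaparib in KO and WT cells; filled points passed an adjusted p of 0.05. Most heavy-strand tRNAs lay above the mRNAs, the run from MT-TA to MT-TY stood at 0.62 to 0.73 under olaparib and 0.20 to 0.33 under siPARP1, and MT-RNR2 lay below 0 under olaparib.

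By median the heavy-strand tRNAs rose most, but only narrowly under siPARP1. Their median change was 1.55 and 1.43 under siPARP1 in KO and WT cells and 1.41 and 1.29 under olaparib. For the 4 light-strand tRNAs outside the cluster it was 1.45 and 1.36 under siPARP1 and 0.72 and 0.58 under olaparib. MT-TF, the tRNA just after the heavy-strand promoters, had 103, 102 and 112 FPKM in siPARP1-treated WT cells and 65.4, 66.4 and 59.2 FPKM in olaparib-treated WT cells, against 12.7, 15.0 and 13.1 FPKM in untreated WT cells. In KO cells it had 98.1, 107 and 89.0 FPKM under siPARP1 and 66.3, 66.4 and 66.0 FPKM under olaparib, against 26.7, 27.1 and 23.7 FPKM without treatment. Treated and untreated libraries did not overlap in either genotype, and the siPARP1 libraries all lay above the olaparib ones. Mean MT-TF was 7.75 times the untreated mean under siPARP1 and 4.68 times under olaparib in WT cells (log2 change 2.87 ± 0.08, adjusted p = 1.77e-12, and 2.15 ± 0.08, adjusted p = 2.80e-11), and 3.80 and 2.56 times in KO cells (1.88 ± 0.08, adjusted p = 6.79e-11, and 1.33 ± 0.08, adjusted p = 4.57e-09).

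MT-TV, which lies between the rRNA genes and is also a structural part of the mitochondrial ribosome, behaved alike. It had 129.9, 152 and 148 FPKM in siPARP1-treated KO cells and 104, 101 and 102 FPKM in olaparib-treated KO cells, against 25.1, 26.6 and 24.3 FPKM in untreated KO cells. In WT cells the values were 160.3, 164 and 176 FPKM under siPARP1 and 108, 104 and 93.2 FPKM under olaparib, against 21.6, 22.1 and 21.6 FPKM without treatment. No treated library came near the untreated ones, and the log2 change was 2.45 ± 0.06 and 2.88 ± 0.06 under siPARP1 in KO and WT cells and 1.97 ± 0.06 and 2.17 ± 0.06 under olaparib (adjusted p at most 1.07e-11).

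MT-TT, near the far end of the heavy-strand transcript, had 320.0, 299 and 297 FPKM in siPARP1-treated KO cells and 303, 269.5 and 291 FPKM in olaparib-treated KO cells, against 62.5, 66.3 and 64.2 FPKM in untreated KO cells. In WT cells it had 278, 291 and 302 FPKM under siPARP1 and 270.1, 258 and 262 FPKM under olaparib, against 77.7, 79.8 and 78.6 FPKM without treatment. Here the treatments lay close together, with log2 changes of 2.23 and 1.87 under siPARP1 and 2.14 and 1.73 under olaparib in KO and WT cells. The aspartate tRNA MT-TD (2.16, 1.76, 1.42 and 1.16, in the same order), the histidine tRNA MT-TH (1.86, 1.59, 1.66 and 1.39) and the glycine tRNA MT-TG (1.56, 1.50, 1.59 and 1.47) also rose in all 4 comparisons.

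The other heavy-strand tRNAs, for leucine (MT-TL1, MT-TL2), isoleucine (MT-TI), methionine (MT-TM), lysine (MT-TK), arginine (MT-TR) and serine (MT-TS2), were higher by 0.75 to 1.93 on the log2 scale over the 4 comparisons. The lowest of these values was MT-TI under olaparib in WT cells (87.3 ± 5.84 against 51.6 ± 4.56 FPKM) and the highest MT-TM under siPARP1 in KO cells (48.7 ± 3.47 against 12.3 ± 2.96 FPKM). The 4 light-strand tRNAs outside the cluster rose by 0.39 to 1.81 over the 4 comparisons. MT-TE (glutamate) rose by 0.86 and 0.77 under siPARP1 and 0.82 and 0.72 under olaparib in KO and WT cells, MT-TS1 by 1.81, 1.64, 0.98 and 1.10, and MT-TQ by 1.32, 1.12, 0.62 and 0.41. The call of MT-TQ under olaparib in WT cells was lost without untreated WT library 1 (0.37) or 3 (0.36) or olaparib WT library 1 (0.33) or 2 (0.39), and MT-TQ and MT-TI share 3 bases on opposite strands.

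MT-TP separated the treatments more than any other member. It had 1136, 1122 and 1087 FPKM in siPARP1-treated KO cells and 1048, 1067 and 1064 FPKM in siPARP1-treated WT cells. Under olaparib it had 492, 470.0 and 492 FPKM in KO cells and 474, 488 and 464 FPKM in WT cells, against 352, 394 and 362 FPKM in untreated KO cells and 358, 333 and 356 FPKM in untreated WT cells. The siPARP1 libraries were 1048 FPKM or higher and the others 492 FPKM or lower. Compared directly, siPARP1 minus olaparib was 1.20 ± 0.05, adjusted p = 3.40e-11, in KO cells and 1.15 ± 0.05, adjusted p = 6.24e-11, in WT cells. Times of exposure differ between the treatments (48 h and 24 h), and this contrast was added after the data had been seen.

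The clustered light-strand tRNAs went the other way. MT-TN, the tRNA row with the highest mean FPKM, had 3406, 3422 and 3404 FPKM in siPARP1-treated KO cells and 4573, 4558 and 4648 FPKM in olaparib-treated KO cells. Untreated KO cells had 2951, 3056 and 2920.1 FPKM. In WT cells it had 2815, 2774 and 2849.7 FPKM under siPARP1 and 3813, 3703 and 3638 FPKM under olaparib, against 2342, 2324 and 2341 FPKM without treatment. Each group lay apart from the others of its genotype, in the order untreated, siPARP1, olaparib. All 4 of MT-TA, MT-TN, MT-TC and MT-TY were lower under siPARP1 than under olaparib, with differences of -0.43 to -0.40 in KO cells and -0.42 to -0.35 in WT cells (adjusted p at most 4.54e-06). Against untreated cells they rose by 0.62 to 0.73 under olaparib. Under siPARP1 they rose by 0.20 to 0.33, and in KO cells the calls of MT-TA, MT-TN and MT-TC were lost when FPKM were rescaled to annotated genes (0.04, 0.04 and 0.07).

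MT-TW, the heavy-strand tRNA that borders the cluster, was also lower under siPARP1 than under olaparib. It had 62.8, 45.3 and 51.9 FPKM in siPARP1-treated KO cells and 97.7, 90.2 and 91.6 FPKM in olaparib-treated KO cells, against 29.5, 32.1 and 23.8 FPKM in untreated KO cells. In WT cells the values were 43.7, 57.5 and 55.7 FPKM under siPARP1 and 78.8, 69.5 and 77.3 FPKM under olaparib, against 24.7, 26.8 and 32.6 FPKM without treatment. The 3 conditions did not overlap within either genotype. The difference of siPARP1 minus olaparib was -0.81 ± 0.14, adjusted p = 0.000216, in KO cells and -0.52 ± 0.14, adjusted p = 0.00596, in WT cells.

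In all, 22 of the 37 genes were higher and 5 lower under siPARP1 than under olaparib in KO cells, against 29.7% and 22.4% of all tested genes, and 17 were higher and 5 lower in WT cells, against 28.3% and 23.4%. The 5 lower genes were MT-TW and the 4 clustered tRNAs in each genotype. Single libraries decided some of the smaller rises. In WT cells these were MT-TS1 (0.46 without olaparib library 2, 0.43 without siPARP1 library 1), MT-TS2 (0.12 to 0.16 without olaparib library 2 or 3 or siPARP1 library 2 or 3) and MT-TT (0.11 to 0.14 without the same 4). In KO cells they were MT-ND4 (0.14 to 0.17 without olaparib library 1 or 2 or siPARP1 library 3), MT-TI (0.22 and 0.24 without olaparib library 2 or siPARP1 library 3), MT-TS2 (0.14 without olaparib library 3 or siPARP1 library 2) and MT-ND4L (0.15 without olaparib library 2).

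**Figure D3:**
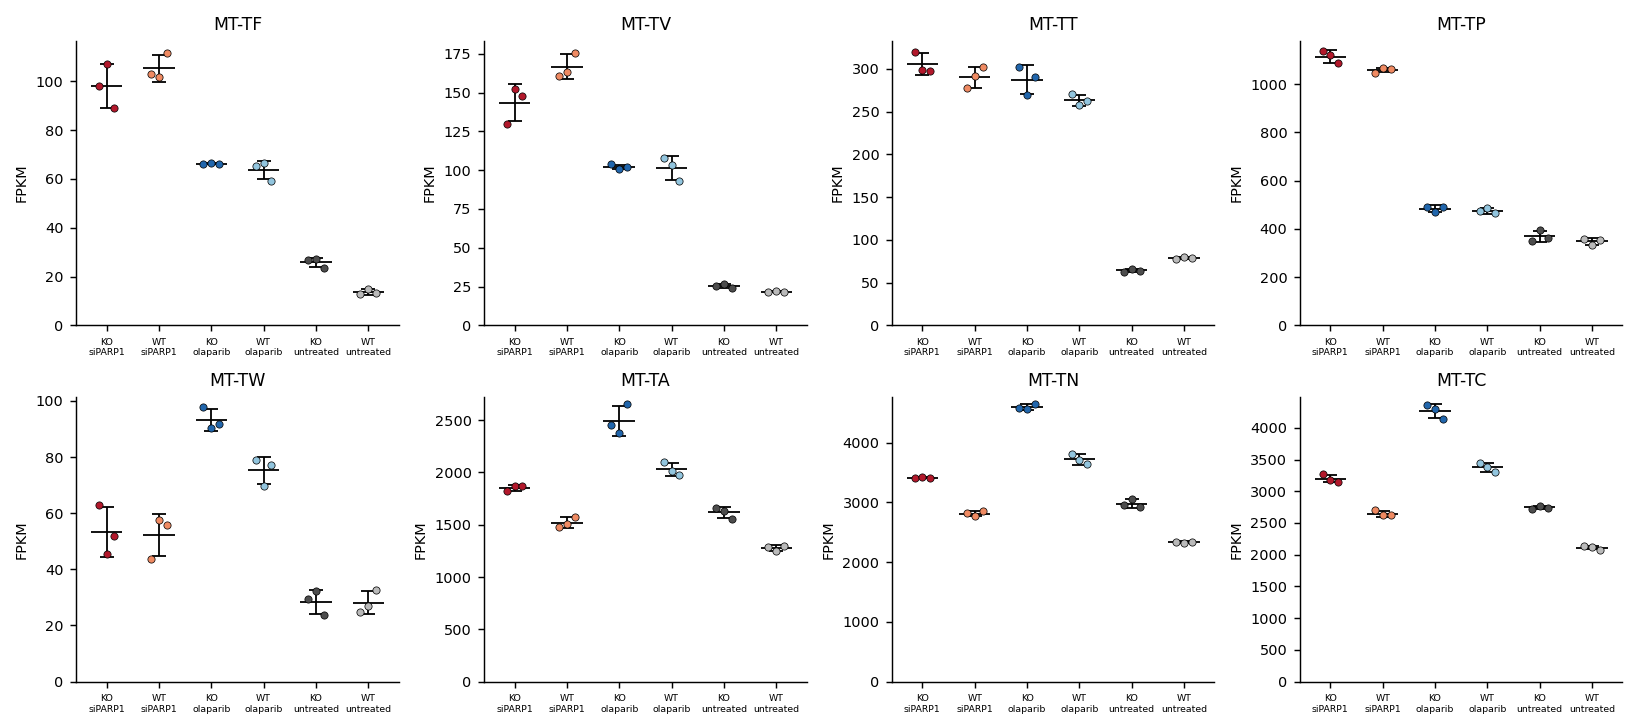
FPKM of 8 mtDNA-encoded tRNAs (y axes, from 0) in each library of the 6 groups, with the mean and SD (n = 3). MT-TF, MT-TV and MT-TP were highest under siPARP1, MT-TT differed little between the treatments, and MT-TW, MT-TA, MT-TN and MT-TC were highest under olaparib, with every KO library above every WT library in each condition for MT-TA, MT-TN and MT-TC.

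The rRNAs did not follow the tRNAs. MT-RNR2, the RNA of the large mitochondrial ribosomal subunit, had 6704, 7665 and 6783 FPKM in siPARP1-treated KO cells and 5051, 4683 and 5075 FPKM in olaparib-treated KO cells, against 8077, 7561 and 7988 FPKM in untreated KO cells. In WT cells it had 7439.6, 7098 and 7329.9 FPKM under siPARP1 and 4807, 4523 and 4825 FPKM under olaparib, against 5527, 5160.2 and 5560.1 FPKM without treatment. Olaparib libraries lay below all untreated libraries in both genotypes, and siPARP1 libraries lay above the untreated ones in WT cells and overlapped them in KO cells. MT-RNR2 fell under olaparib in KO cells (-0.67 ± 0.06, adjusted p = 4.23e-07) and in WT cells (-0.20 ± 0.06, adjusted p = 0.0143). It rose under siPARP1 in WT cells (0.43 ± 0.06, adjusted p = 2.98e-05) and was lower in KO cells (-0.16 ± 0.06, adjusted p = 0.0333).

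Both of the smaller MT-RNR2 differences depended on single libraries. The olaparib call in WT cells was lost without untreated library 3 (-0.18) or olaparib library 2 (-0.17), and the siPARP1 call in KO cells without untreated library 1 (-0.14) or 3 (-0.15) or siPARP1 library 1 (-0.13) or 3 (-0.14). MT-RNR1, the RNA of the small subunit, had 608, 1289.9 and 571 FPKM in siPARP1-treated KO cells, so library 2 of that group stood apart, and 635, 662 and 641 FPKM in untreated KO cells. No comparison of MT-RNR1 passed the test. Fitted on the groups compared alone, without the spread of that KO group, MT-RNR1 passed in WT cells under siPARP1 (0.43) and olaparib (0.31) and in KO against WT cells under olaparib (-0.41). Both rRNAs carry at most short poly(A) tails, and the libraries were selected with oligo(dT), so their level is not a measure of total rRNA.

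By class median the mRNAs rose less than the tRNAs, and unevenly. The 4 clustered tRNAs under siPARP1, at 0.20 to 0.33, lay below the mRNA medians of the same genotype. In KO cells all 13 passed the test under both treatments, with median changes of 0.68 under siPARP1 and 0.43 under olaparib. In WT cells 12 rose under siPARP1 (median 0.37) and 9 under olaparib (median 0.28), and none fell. The largest rises were in mRNAs of complex I, the NADH dehydrogenase. MT-ND1 had 5827, 5848 and 5970.2 FPKM in siPARP1-treated KO cells and 4112, 3868 and 4175 FPKM in olaparib-treated KO cells, against 2031, 1968 and 2021 FPKM in untreated KO cells, and in WT cells 5376, 5475 and 5547 FPKM under siPARP1 and 3877, 3681 and 4029 FPKM under olaparib, against 2476, 2330.2 and 2492 FPKM without treatment. Treated and untreated libraries were far apart, and siPARP1 libraries all exceeded olaparib ones. The log2 change was 1.55 ± 0.05 and 1.17 ± 0.05 under siPARP1 in KO and WT cells and 1.01 ± 0.05 and 0.67 ± 0.05 under olaparib.

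MT-ND2 had 7705, 7832 and 8307 FPKM in siPARP1-treated KO cells and 4229.9, 3829.9 and 4416 FPKM in olaparib-treated KO cells, against 2692, 2612 and 2739.5 FPKM in untreated KO cells. In WT cells it had 7473, 7228 and 7475 FPKM under siPARP1 and 4514, 4217 and 4921 FPKM under olaparib, against 3724, 3285 and 3643 FPKM without treatment. The siPARP1 groups were again the highest, and siPARP1 minus olaparib was 0.94 ± 0.07, adjusted p = 3.63e-08, in KO cells and 0.70 ± 0.07, adjusted p = 8.23e-07, in WT cells. MT-ND3 rose by 1.04 and 0.85 under siPARP1 and by 0.54 and 0.37 under olaparib in KO and WT cells.

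The other complex I mRNAs did not separate the treatments in the same way. MT-ND5 rose by 0.59 and 0.48 under siPARP1 and by 0.65 and 0.50 under olaparib in KO and WT cells, and MT-ND6, the light-strand mRNA, by 0.68, 0.38, 0.73 and 0.45. For these genes siPARP1 minus olaparib was -0.07 to -0.02 (adjusted p at least 0.383). The bicistronic pair MT-ND4L and MT-ND4 changed by 0.49 and 0.38 under siPARP1 and 0.29 and 0.22 under olaparib in KO cells, and 0.27 and 0.22 under siPARP1 and 0.15 and 0.18 under olaparib in WT cells. Of these, MT-ND4L under olaparib in WT cells did not pass (adjusted p = 0.0754). MT-ND4 lost its call there without untreated library 2 (0.13) or olaparib library 3 (0.14).

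Among the complex IV mRNAs, MT-CO1 had 17215 ± 376 FPKM in siPARP1-treated KO cells and 14879.8 ± 554 FPKM in olaparib-treated KO cells, against 12351 ± 547 FPKM in untreated KO cells (SD, n = 3 each), changes of 0.48 ± 0.06 and 0.27 ± 0.06. In WT cells its changes were 0.25 and 0.22. MT-CO2 rose by 0.64 and 0.28 under siPARP1 and by 0.57 and 0.38 under olaparib in KO and WT cells. MT-CO3 rose by 0.58 and 0.23 in KO cells. In WT cells MT-CO3 had a called change of 0.20 under siPARP1, lost without untreated library 2 (0.15) or siPARP1 library 3 (0.18), and one of 0.08 under olaparib that did not pass (adjusted p = 0.309). MT-CYB, the only complex III subunit encoded in mtDNA, rose by 0.78 and 0.37 under siPARP1 and by 0.43 and 0.28 under olaparib. On rescaling to annotated genes, the calls of MT-CO1, MT-CO2, MT-CO3, MT-ND4 and MT-ND4L under siPARP1 in WT cells were lost (0.07 to 0.15), as were those of MT-ND4, MT-CO3 and MT-ATP8 under olaparib in KO cells (0.13 to 0.35) and of MT-ND4 and MT-TQ under olaparib in WT cells (0.12 and 0.35).

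The ATP synthase mRNAs MT-ATP8 and MT-ATP6 are read from 1 bicistronic RNA and share the stretch chrM:8527-8572. It is shown because reads inside it belong to both genes, with the start codon of MT-ATP6 and the stop codon of MT-ATP8 in capitals.
MT-ATP8/MT-ATP6 overlap: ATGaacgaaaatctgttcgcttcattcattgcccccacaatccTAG
MT-ATP8 had 10862, 8375 and 11355 FPKM in siPARP1-treated KO cells and 6789, 7157 and 7069 FPKM in olaparib-treated KO cells, against 5017, 4592 and 6038 FPKM in untreated KO cells. In WT cells it had 8595, 10578 and 9415 FPKM under siPARP1 and 9053, 8138 and 8259.9 FPKM under olaparib, against 9749.9, 6769 and 9229.7 FPKM without treatment, and the libraries overlapped. MT-ATP8 rose in KO cells under siPARP1 (0.96 ± 0.14, adjusted p = 5.28e-05) and olaparib (0.43 ± 0.14, adjusted p = 0.0233). The olaparib call ended without untreated library 1 (0.41) or 2 (0.35) or olaparib library 2 (0.42) or 3 (0.43). In WT cells the changes of MT-ATP8 were 0.16 under siPARP1 and 0.00 under olaparib and did not pass (adjusted p = 0.368 and 0.998). MT-ATP6 rose by 0.77 and 0.49 under siPARP1 in KO and WT cells and by 0.36 under olaparib in KO cells, and its 0.06 under olaparib in WT cells did not pass (adjusted p = 0.510).

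**Figure D4:**
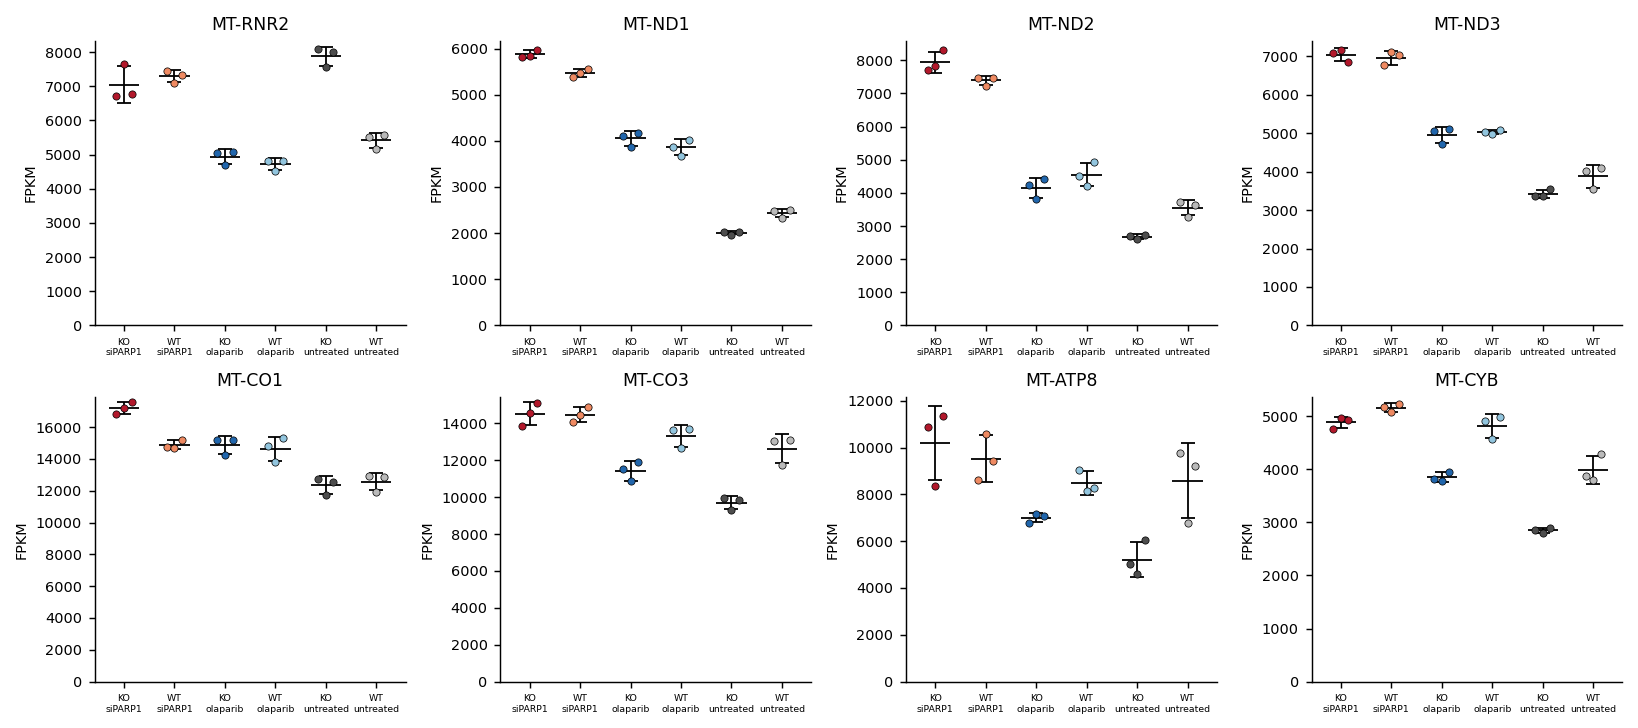
FPKM of MT-RNR2 and 7 mtDNA-encoded mRNAs (y axes, from 0) in each library of the 6 groups, with the mean and SD (n = 3). MT-RNR2 was highest in untreated KO cells (7875 FPKM) and lowest under olaparib, MT-ND1, MT-ND2 and MT-ND3 were highest under siPARP1, and MT-ATP8 and MT-CYB were lowest in untreated KO cells (5216 and 2851 FPKM).

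Ratios within a library do not depend on the library's scale. The tRNA to mRNA ratio was 0.235 ± 0.00697 in KO and 0.187 ± 0.00726 in WT cells under olaparib, against 0.179 ± 0.00976 in untreated KO and 0.126 ± 0.00912 in untreated WT cells (SD, n = 3 each), a mean log2 change of 0.48 (stratified exact permutation test, Benjamini-Hochberg adjusted p = 0.00938 over 15 ratio tests). Under siPARP1 it was 0.167 ± 0.00603 in KO and 0.153 ± 0.00278 in WT cells, below the untreated value in KO cells and above it in WT cells. The pooled change of 0.09 did not pass the same test (adjusted p = 0.271). The tRNA sums are mostly the 4 clustered tRNAs. The mean of log2 tRNA levels minus that of mRNA levels, which weights genes equally, was 0.68 higher under siPARP1 (exact permutation test, p = 0.005). The 18 other tRNAs alone stood at 0.0658 and 0.0654 of the mRNAs in KO and WT cells under siPARP1, 0.0679 and 0.0599 under olaparib, and 0.0375 and 0.0327 without treatment.

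The rRNA to mRNA ratio under olaparib was 0.0645 ± 0.000760 in KO and 0.0610 ± 0.000448 in WT cells, against 0.132 ± 0.00186 in untreated KO and 0.0789 ± 0.00293 in untreated WT cells, a log2 change of -0.70 (adjusted p = 0.00938). Under siPARP1 the ratio was 0.0744 ± 0.0103 in KO and 0.0817 ± 0.00355 in WT cells, below the untreated value in KO cells and slightly above it in WT cells, and the pooled change of -0.39 did not pass (adjusted p = 0.116). The ratio of the neighbours MT-RNR2 and MT-ND1, which was not tested, was below the untreated value in all 4 treated groups. In WT cells under siPARP1 it thus differed from the class ratio, and MT-ND1 is among the mRNAs that rose most. MT-RNR2 stood at 1.20 ± 0.0968 and 1.33 ± 0.0450 times MT-ND1 in KO and WT cells under siPARP1 and at 1.22 ± 0.00895 and 1.22 ± 0.0220 times under olaparib. Without treatment it stood at 3.92 ± 0.0721 times MT-ND1 in KO cells and 2.23 ± 0.0101 times in WT cells, so the 4 treated groups were close to each other and the untreated genotypes far apart.

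MT-ND6 relative to the 12 heavy-strand mRNAs was higher under olaparib by 0.27 (adjusted p = 0.00938) and differed by -0.02 under siPARP1 (adjusted p = 0.670). Because the libraries were selected with oligo(dT), MT-ND6 ratios here and below are not ratios of total RNA. Complex I mRNAs relative to complex IV mRNAs were higher by 0.11 under olaparib and 0.32 under siPARP1 (adjusted p = 0.00938 for both). The ATP synthase mRNAs relative to complex IV mRNAs differed by -0.07 under olaparib and 0.17 under siPARP1, and neither passed (adjusted p = 0.434 and 0.188). With genes weighted equally, the siPARP1 change passed for MT-ND6 (-0.12, exact p = 0.020), for ATP synthase mRNAs (0.19, exact p = 0.025) and for the rRNA to mRNA ratio (-0.41, exact p = 0.030), these p not adjusted.

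Untreated KO and WT cells differed by class. In KO cells 9 of the 37 genes were higher and 12 lower, against 9.58% and 10.9% of all tested genes, and the 8 mRNAs that passed were all lower. The 9 higher genes were MT-RNR2 and 8 tRNAs. Under olaparib 6 genes, all tRNAs, were higher and 2 mRNAs lower in KO cells, against 5.68% and 7.16% of all genes. Under siPARP1 9 were higher and 2 lower, against 11.8% and 11.2%.

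**Figure D5:**
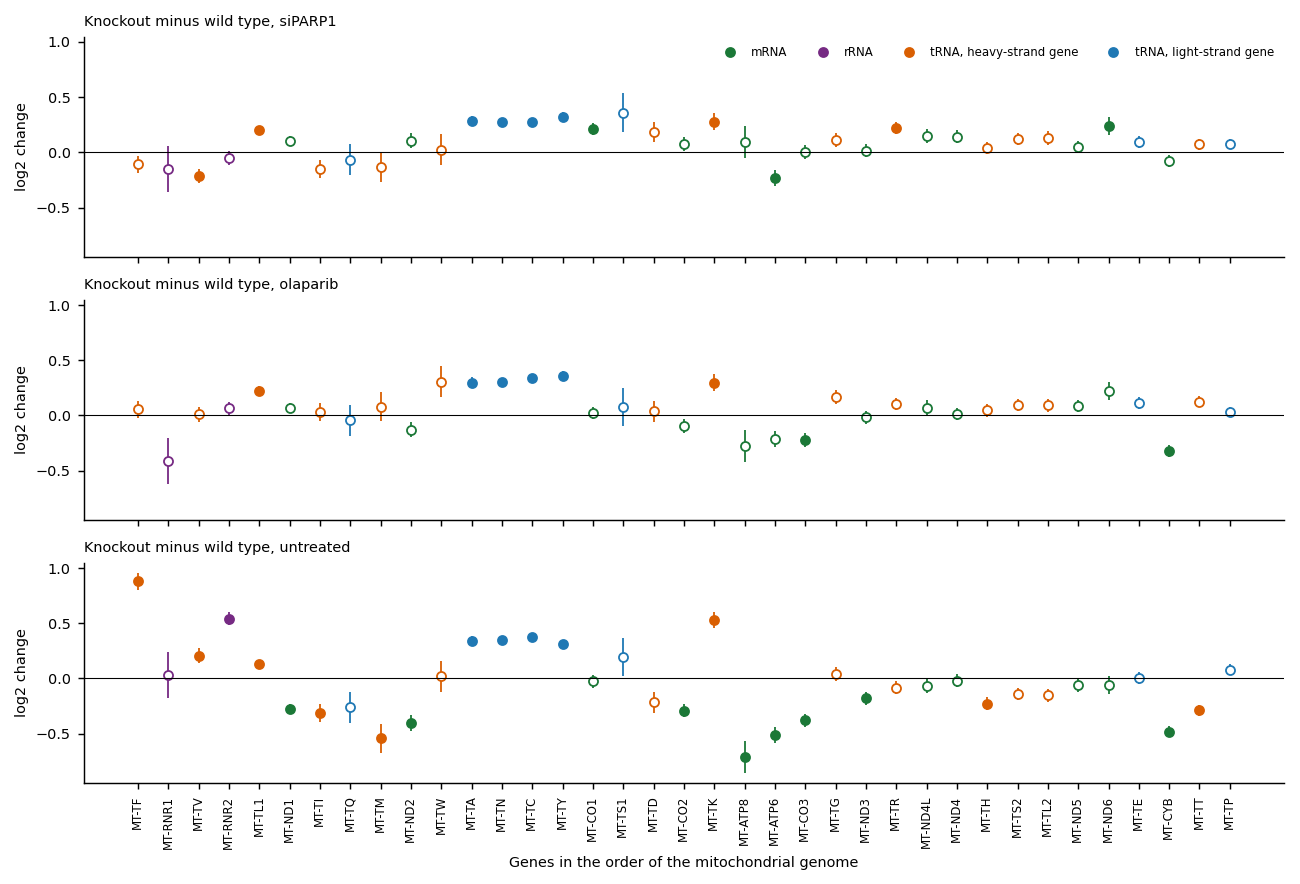
KO minus WT difference in log2(FPKM + 1), with SE (y axis), of the 37 genes in the order of the mitochondrial genome under siPARP1, under olaparib and without treatment; filled points passed an adjusted p of 0.05. The 4 genes from MT-TA to MT-TY were higher in KO cells in all 3 conditions (0.27 to 0.38), while 8 mRNAs were lower in untreated KO cells, 2 under olaparib and 1 under siPARP1.

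The clustered light-strand tRNAs were higher in KO cells in all 3 conditions. MT-TC had 3265, 3185 and 3149.5 FPKM in KO cells under siPARP1, against 2698, 2619.5 and 2619.6 FPKM in WT cells. Under olaparib it had 4354, 4292 and 4137 FPKM in KO cells, against 3439.8, 3384 and 3303 FPKM in WT cells, and without treatment 2721, 2774 and 2740.2 FPKM in KO cells, against 2132, 2127 and 2078 FPKM in WT cells. Every KO library lay above every WT library of its condition, and the same held for MT-TA, MT-TN and MT-TY. The difference of MT-TC was 0.27 ± 0.04, adjusted p = 0.000107, under siPARP1, 0.34 ± 0.04, adjusted p = 2.95e-05, under olaparib and 0.38 ± 0.04, adjusted p = 5.17e-06, without treatment. For MT-TA, MT-TN and MT-TY it was 0.29, 0.28 and 0.32 under siPARP1, 0.30, 0.30 and 0.36 under olaparib and 0.34, 0.35 and 0.31 without treatment. The other light-strand tRNAs (MT-TQ, MT-TS1, MT-TE and MT-TP) did not pass between genotypes in any condition, and their differences were -0.26 to 0.36.

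Some heavy-strand tRNAs were higher in untreated KO cells. MT-TF had 26.7, 27.1 and 23.7 FPKM in untreated KO cells, against 12.7, 15.0 and 13.1 FPKM in untreated WT cells, which did not overlap (0.88 ± 0.08, adjusted p = 1.56e-06), while its difference was 0.06 under olaparib and -0.11 under siPARP1 and passed in neither. MT-TK had 28.1, 27.7 and 31.3 FPKM in untreated KO cells, against 18.5, 20.3 and 20.6 FPKM in untreated WT cells (0.53 ± 0.08, adjusted p = 0.000165). It was also higher in KO cells under olaparib (0.30) and siPARP1 (0.28). The olaparib call of MT-TK was lost without olaparib WT library 1 (0.27) or 2 (0.25) or KO library 2 (0.29) or 3 (0.29), and the siPARP1 call without WT library 1 (0.23) or KO library 1 (0.22). MT-TL1 was higher in KO cells by 0.20 under siPARP1, 0.23 under olaparib and 0.13 without treatment, and MT-TR by 0.22 under siPARP1, lost without siPARP1 WT library 3 (0.18).

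MT-TV was higher in untreated KO cells (0.21) and lower in siPARP1-treated KO cells (-0.22), both small. Without treatment the calls of MT-TV (0.17 to 0.22) and MT-TL1 (0.09 to 0.14) were each lost on leaving out any of 5 libraries. For MT-TV these were WT libraries 1, 2 and 3 and KO libraries 1 and 2, and for MT-TL1 WT libraries 1, 2 and 3 and KO libraries 1 and 3. The siPARP1 call of MT-TV was lost without WT library 3 (-0.18) or KO library 1 (-0.15). The tRNAs lower in untreated KO cells were MT-TM (-0.54), MT-TI (-0.31), MT-TT (-0.29) and MT-TH (-0.23), and none of these passed between genotypes under treatment. MT-TI lost its call without untreated WT library 2 (-0.25) or KO library 1 (-0.29) or 3 (-0.27).

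MT-RNR2 had 8077, 7561 and 7988 FPKM in untreated KO cells, against 5527, 5160.2 and 5560.1 FPKM in untreated WT cells, without overlap (0.54 ± 0.06, adjusted p = 1.53e-05). Its difference was 0.06 under olaparib and -0.05 under siPARP1 and passed in neither. The mRNAs lower in untreated KO cells were MT-ATP8, MT-ATP6, MT-CYB, MT-ND2, MT-CO3, MT-CO2, MT-ND1 and MT-ND3. MT-CYB had 2853, 2800.5 and 2899 FPKM in untreated KO cells, against 3876, 3791 and 4292 FPKM in untreated WT cells (-0.48 ± 0.05, adjusted p = 1.12e-05), and 3822, 3782 and 3955 FPKM in KO cells under olaparib, against 4920.1, 4568 and 4979 FPKM in WT cells (-0.32 ± 0.05, adjusted p = 0.000691). The groups did not overlap in either condition, while under siPARP1 the difference was -0.08 and did not pass.

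MT-ATP8 had 5017, 4592 and 6038 FPKM in untreated KO cells, against 9749.9, 6769 and 9229.7 FPKM in untreated WT cells. WT library 2 lay well under the other WT libraries but above the KO ones (-0.71 ± 0.14, adjusted p = 0.00280). The other mRNA differences in untreated cells were -0.51 for MT-ATP6, -0.40 for MT-ND2, -0.38 for MT-CO3, -0.29 for MT-CO2, -0.28 for MT-ND1 and -0.18 for MT-ND3. MT-ND3 overlapped between genotypes and lost its call without WT library 1 (-0.16) or 3 (-0.14) or KO library 1 (-0.17) or 2 (-0.17). The mRNAs that did not pass were MT-CO1 (-0.03), MT-ND4L (-0.07), MT-ND4 (-0.02), MT-ND5 (-0.06) and MT-ND6 (-0.06).

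Under olaparib MT-CO3 was lower in KO cells (-0.22), a call lost without WT library 1 (-0.21) or 3 (-0.20) or KO library 1 (-0.23) or 2 (-0.19). Under siPARP1 MT-CO1 and MT-ND6 were higher in KO cells (0.21 and 0.24) and MT-ATP6 was lower (-0.23). The MT-ATP6 call was lost without WT library 2 (-0.24) or 3 (-0.17) or KO library 1 (-0.19) or 2 (-0.24). That of MT-ND6 was lost on leaving out any of 13 of the 18 libraries (0.18 to 0.25): siPARP1 KO libraries 1, 2 and 3, siPARP1 WT libraries 1 and 2, olaparib KO libraries 1, 2 and 3, olaparib WT libraries 1 and 3, untreated KO libraries 1 and 2, and untreated WT library 1. Over the 3 conditions the tRNA to mRNA ratio was higher in KO than in WT cells by 0.32 on the log2 scale and MT-ND6 relative to heavy-strand mRNAs by 0.22 (adjusted p = 0.00188 for both). Complex I relative to complex IV mRNAs was higher by 0.07 (adjusted p = 0.00938), ATP synthase relative to complex IV mRNAs was lower (-0.23, adjusted p = 0.0188), and the rRNA to mRNA ratio differed by 0.23 (adjusted p = 0.110). That last value pools opposite directions, since the ratio was higher in KO than in WT cells without treatment (0.132 against 0.0789) and under olaparib (0.0645 against 0.0610) and lower under siPARP1 (0.0744 against 0.0817). Both ratios to complex IV mRNAs overlapped between genotypes under siPARP1. Complex I to complex IV was 0.961 in KO and 0.956 in WT cells there, 0.865 and 0.794 under olaparib, and 0.792 and 0.745 without treatment. ATP synthase to complex IV was 0.257 and 0.267 under siPARP1, 0.207 and 0.234 under olaparib, and 0.198 and 0.273 without treatment.

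The treatment effect itself differed between genotypes for some genes, tested as an interaction (the change in KO cells minus the change in WT cells). Under siPARP1 the change was more positive in KO cells for 8 of the 37 genes and more negative for 3, against 2.74% and 2.52% of all tested genes. Under olaparib it was more positive for 2 and more negative for 2, against 1.40% and 1.66%. Under both treatments MT-TF rose less in KO cells, the change of MT-RNR2 was more negative there, and MT-ND1 and MT-TT rose more. All 4 genes also differed between untreated KO and WT cells, and the interaction uses the same untreated libraries. With no filter on low values, 7 of the 8 more positive siPARP1 interactions (all but MT-TT) and those of MT-ND1 and MT-RNR2 under olaparib did not pass, and 4 of the 8 (MT-CO2, MT-CO3, MT-TR and MT-ATP8) did not pass with the groups compared alone.

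Nuclear chromosomes carry old copies of mtDNA, and reads of the most similar ones cannot be assigned with certainty. A block on chromosome 1 holds near-identical copies. The copy with the highest FPKM is MTATP6P1 at chr1:633696-634376 (GRCh38), which differs from MT-ATP6 at 10 of 681 bases and averaged 1156 FPKM over 18 libraries, 43.7 to 48.2% of the sum of both rows in each library. MTATP6P1 had 759, 697 and 751 FPKM in untreated KO cells, against 1134, 1039.7 and 1147 FPKM in untreated WT cells, and moved as MT-ATP6 did (-0.59 ± 0.06 for the copy and -0.51 ± 0.07 for the gene). MTND2P28 averaged 1014 FPKM, 15.3 to 17.7% of MT-ND2 and copy together, and MTCO1P12 726 FPKM, 4.40 to 5.18% of MT-CO1 and copy. The other copies of at least 5 FPKM were MTCO3P12 (71.7 FPKM), MTND1P23 (62.9 FPKM), MTCO2P12 (34.8 FPKM) and, on chromosome 5, MTND4P12 (30.6 FPKM). Adding the copies to their genes lost no call and added that of MT-ATP6 in KO against WT cells under olaparib (-0.26). Of the 10 copies tested, 10 rose under siPARP1 and 8 under olaparib in KO cells and 5 and 4 in WT cells, and none fell. Of all tested genes, 31.9% and 25.2% were called higher under siPARP1 and olaparib in KO cells and 29.5% and 24.9% in WT cells, so 4 of 10 is not far above the background. How reads were shared between genes and copies was not tested.

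Nuclear genes that serve mtDNA were counted from lists, to be read against the shares of all tested genes called higher and lower, which were 31.9% and 22.8% under siPARP1 in KO cells, 29.5% and 22.3% under siPARP1 in WT cells, 25.2% and 22% under olaparib in KO cells and 24.9% and 20.4% under olaparib in WT cells. Of 25 tested genes for mtDNA transcription and replication, 11 rose and 4 fell under siPARP1 in each genotype (medians 0.23 in KO and 0.17 in WT cells), while under olaparib 7 rose and 7 fell in KO cells and 3 rose and 7 fell in WT cells (medians -0.07 and -0.01). In KO cells the olaparib counts, 28% in each direction, were near those shares. POLRMT, the polymerase itself, had 16.6, 15.9 and 16.8 FPKM in siPARP1-treated KO cells and 9.61, 8.62 and 9.04 FPKM in olaparib-treated KO cells, against 11.5, 12.9 and 10.7 FPKM in untreated KO cells. In WT cells it had 12.5, 13.1 and 12.4 FPKM under siPARP1 and 7.22, 7.70 and 7.62 FPKM under olaparib, against 9.72, 10.2 and 8.96 FPKM without treatment. The siPARP1 libraries lay above and the olaparib libraries below the untreated ones in both genotypes. POLRMT rose under siPARP1 by 0.46 and 0.37 in KO and WT cells, fell under olaparib (-0.33 and -0.32), and was higher in KO than in WT cells under siPARP1 (0.35), olaparib (0.24) and without treatment (0.25).

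TFB2M, which melts the promoter for POLRMT, rose under siPARP1 (0.78 in KO and 0.81 in WT cells), and its 0.10 and 0.00 under olaparib did not pass. TFAM, which packages mtDNA and starts transcription, rose by 0.58 and 0.37 under siPARP1 and by 0.21 under olaparib in KO cells, had -0.01 under olaparib in WT cells, which did not pass, and was lower in untreated KO than in untreated WT cells (-0.30). The elongation factor TEFM rose in all 4 comparisons, by 0.63 and 0.58 under siPARP1 and 0.42 and 0.32 under olaparib. Among the largest changes of the list, PPARGC1B, a coactivator of mitochondrial genes, rose by 0.91 under siPARP1 and 0.54 under olaparib in KO cells, and GABPB1, a subunit of the factor NRF-2, fell under olaparib (-0.69 in KO and -0.92 in WT cells).

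Of 37 genes for mitochondrial RNA processing and stability, 23 rose and 0 fell under siPARP1 in KO cells and 23 rose and 1 fell in WT cells, and under olaparib 13 rose and 3 fell in KO cells and 11 rose and 3 fell in WT cells. The 11 that rose, 29.7% of the list, were close to the 24.9% of all tested genes. PDE12, which removes poly(A) tails from mitochondrial RNA, had 26.8, 26.0 and 25.8 FPKM in olaparib-treated KO cells, against 14.2, 13.7 and 14.0 FPKM in untreated KO cells, and 19.8, 19.9 and 19.9 FPKM in olaparib-treated WT cells, against 12.8, 12.8 and 12.9 FPKM in untreated WT cells. Olaparib libraries lay far above the untreated ones, and PDE12 was the largest rise of the list under olaparib (0.86 and 0.59). Under siPARP1 the largest was FASTKD5, needed for cutting mitochondrial RNAs at sites without a tRNA (1.15 in KO and 1.07 in WT cells). LRPPRC, which stabilises mitochondrial mRNAs with its partner SLIRP, rose by 0.37 and 0.33 under siPARP1 and 0.26 and 0.22 under olaparib, and SLIRP rose in all but siPARP1-treated KO cells (0.10, adjusted p = 0.367).

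The nuclear subunits of complexes I, III, IV and V, which assemble with the mtDNA-encoded proteins, also rose more often than they fell, as all tested genes did to a smaller degree (31.9% higher and 22.8% lower under siPARP1 in KO cells). Of 75 tested, 46 rose and 0 fell under siPARP1 in KO cells, 48 rose and 1 fell in WT cells, and under olaparib 34 rose and 3 fell in KO cells and 31 rose and 3 fell in WT cells. Their median changes were 0.29, 0.36, 0.21 and 0.21, and those of the 13 mtDNA-encoded mRNAs 0.68, 0.37, 0.43 and 0.28, in the same order. On rescaling to annotated genes the 46 became 27. NDUFAB1, the acyl carrier protein of complex I, rose by 1.21 and 1.07 under siPARP1 in KO and WT cells, and UQCRQ, a subunit of complex III, by 0.62 and 0.70. Between untreated KO and WT cells 6 were higher and 8 lower in KO cells (near the 9.58% and 10.9% of all tested genes), with a median of -0.04, while the mtDNA-encoded mRNAs had a median of -0.28 with 8 of 13 lower.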

How the data were processed

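RNA was extracted from the cells, and 1 µg per library was selected with oligo(dT) beads, per the labels' protocols. The authors deposited FPKM per gene and per transcript. GRCh38 is the build per the submitters' processing notes, which list StringTie 2.2.1 and featureCounts 2.0.3 beside HISAT2 2.2.1, with DESeq2 1.38.3 and fastp 0.23.2. Which of them made the FPKM, the annotation release and the strand setting are not given in the sources used here. Symbols were found for 61757 rows. The transcript values equalled the gene values within 0.1% for all 37 genes.

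Genes reaching 1 FPKM in 3 or more of 18 libraries entered limma (3.58.1, R 4.3.3) on the log2(FPKM + 1) scale, in 1 fit of 6 groups with a mean-dependent prior variance and 12 residual degrees of freedom, for 9 comparisons and, added after the data had been seen, siPARP1 against olaparib in each genotype. Shares and ratios were tested with two-sided exact permutation tests stratified by genotype or condition (scipy 1.17.1). With 3 libraries against 3 the smallest exact p is 0.1. On simulated data 88% of genes changed by 1 and 65% of those changed by 0.5 on the log2 scale were called. Alternatives were another pseudocount (0.1), no filter, 3 other scalings, transcript sums, the groups compared alone, a replicate block, each library left out and, chosen after the data had been seen, nuclear copies added to their genes and tRNA sums by strand and cluster. Replicate numbers did not pair the libraries.

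Named genes were all 37 members, TRIM27, PARP1, TFAM, POLRMT, TFB2M, TEFM, LRPPRC and SLIRP, nuclear copies of at least 5 FPKM, and some of the genes that the rule allowed from each list, which were its 2 largest rises and 2 largest falls among called genes per comparison. The members and lists were chosen with earlier results of these data known. Of 21 listed nuclear copies, 11 were used here. Sequences are from GENCODE 29.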

Additional observations from a re-analysis of the deposited data

Results flagged for a closer look

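These genes changed by a different amount in KO and in WT cells, by the interaction term of the limma fit (change in KO minus change in WT cells, log2 scale, adjusted over 15764 genes). Under siPARP1 the change was less positive or more negative in KO cells for MT-TF (-0.98, adjusted p = 8.52e-05), MT-RNR2 (-0.59, adjusted p = 0.000821) and MT-TV (-0.42, adjusted p = 0.0146). MT-RNR2 was lower under siPARP1 in KO cells and higher in WT cells. The call in KO cells was lost on leaving out any of 4 libraries, with no filter and with the groups compared alone, so a difference in direction is less certain. On rescaling to annotated genes both changes passed, at -0.32 in KO and 0.30 in WT cells (limma, adjusted p = 0.000414 and 0.000727). The siPARP1 change was larger in KO cells for MT-ATP8 (0.80, adjusted p = 0.0368), MT-ND2 (0.51, adjusted p = 0.00704), MT-CYB (0.40, adjusted p = 0.00496), MT-ND1 (0.38, adjusted p = 0.00332) and MT-CO3 (0.38, adjusted p = 0.0187). It was also larger for MT-CO2 (0.37, adjusted p = 0.0255), MT-TT (0.36, adjusted p = 0.00737) and MT-TR (0.30, adjusted p = 0.0412). Under olaparib MT-TF rose less in KO cells (-0.82, adjusted p = 0.000802) and MT-RNR2 fell more (-0.48, adjusted p = 0.00684), while the change was larger in KO cells for MT-TT (0.41, adjusted p = 0.00486) and MT-ND1 (0.35, adjusted p = 0.0105).

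Under siPARP1 4 of these calls rested on single libraries. That of MT-TR was lost on leaving out any of 14 libraries (0.24 to 0.32), namely every library other than untreated KO library 2, olaparib WT library 3, siPARP1 WT library 2 and siPARP1 KO library 3. That of MT-ATP8 was lost without untreated WT library 1 or 3, untreated KO library 1 or 2, siPARP1 WT library 1 or 3 or siPARP1 KO library 1 or 3 (0.70 to 0.79). That of MT-CO2 was lost without untreated WT library 1 or 3, untreated KO library 2, siPARP1 WT library 1 or 2 or siPARP1 KO library 3 (0.34 to 0.36), and that of MT-CO3 without untreated WT library 1 or 3 (0.36 for each). With no filter, the siPARP1 calls of MT-CO2, MT-CYB, MT-ND2, MT-ND1, MT-CO3, MT-TR and MT-ATP8 and the olaparib calls of MT-ND1 and MT-RNR2 were lost. With the groups compared alone, those of MT-CO2, MT-CO3, MT-TR and MT-ATP8 were lost. Olaparib and siPARP1 interactions share the untreated libraries of both genotypes.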

How the results depend on the processing

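No direction was reversed for any result that passed the test under the settings run, and 28 of the 243 called gene results (of 407 gene results) were lost on leaving out some single library. The pseudocount of 0.1 changed no call. Calls lost numbered 35 with no filter, 26 with the groups compared alone, 23 on rescaling to annotated genes, 16 with median-of-ratios scaling and 7 on rescaling to nuclear genes. With the mean of log2 values per class, siPARP1 against untreated passed for the tRNA to mRNA ratio (0.68), the rRNA to mRNA ratio (-0.41), MT-ND6 to heavy-strand mRNAs (-0.12) and ATP synthase to complex IV mRNAs (0.19). With no filter, the mtDNA-encoded genes lower in KO cells were 1 under olaparib and 1 under siPARP1, those lower than untreated were 0 under olaparib in WT and 0 under siPARP1 in KO cells, and interactions were 1 higher and 1 lower for olaparib and 1 higher for siPARP1. In the lists, 1 transcription gene was higher in untreated KO cells, and 1 processing gene and 1 nuclear subunit fell under olaparib in WT cells. With the groups compared alone, 4 mtDNA-encoded genes were higher and 0 lower in KO cells under siPARP1, 0 fell under siPARP1 in KO cells and 4 siPARP1 interactions were higher. Between untreated KO and WT cells, 0 transcription genes were then higher, 1 processing gene was higher and 3 lower, and 1 nuclear subunit was higher and 4 lower. Of nuclear subunits, 1 then fell under olaparib and 0 under siPARP1 in WT cells. On rescaling to annotated genes, 4 transcription genes rose under olaparib in KO cells, 2 processing genes fell under siPARP1 in KO cells, and 27 nuclear subunits rose and 3 fell there. Median-of-ratios scaling gave 1 lower gene in KO cells under olaparib, and 1 processing gene and 2 nuclear subunits that fell under siPARP1 in KO cells. Rescaling to nuclear genes gave 0 lower in KO cells under siPARP1, and transcript sums gave 1 higher transcription gene in untreated KO cells. The causes were not tested.

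Leaving out each library in turn, the KO against WT rRNA to mRNA ratio ranged over 0.191 to 0.250 and reached an unadjusted exact p of 0.049 without siPARP1 KO library 3 (0.0732 with all libraries). Lower mtDNA-encoded genes numbered 1 to 3 in KO against WT cells under olaparib, 0 to 2 under siPARP1, 0 to 1 for olaparib in WT cells and 0 to 1 for siPARP1 in KO cells, and higher siPARP1 interactions 4 to 9. Transcription genes numbered 0 to 3 higher in untreated KO cells and 2 to 5 lower under siPARP1 in KO cells. Processing genes numbered 1 to 3 higher and 3 to 5 lower in untreated KO cells, 6 to 12 higher and 1 to 4 lower under olaparib in WT cells, 1 to 3 lower under olaparib in KO cells and 0 to 2 lower under siPARP1 in KO cells. Nuclear subunits numbered 1 to 7 higher and 5 to 8 lower in untreated KO cells, 0 to 4 lower under olaparib and 1 to 2 lower under siPARP1 in WT cells. Same-numbered libraries did not deviate together (r = -0.0632 to 0.0738), so the numbers are not a pairing. With the replicate block 403 of 407 gene results kept their side of the threshold, 1 lost its call (MT-TR, siPARP1 interaction, 0.30) and 3 gained one. Absolute depth is unknown, so no counting error can be given for the lowest rows, MT-TS1 and MT-TQ.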
